A study of Mus musculus with 2 samples.

Results

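The genes that tell one segment of the gut from another, together with the Hox genes, were compared between the small intestine of mice carrying an IL-9 transgene and that of wild-type mice. The set holds 41 genes, chosen by name with earlier results of these data known. On the proximal side of the small intestine 7 were placed, and 10 on its ileal side. The others are the caudal factors Cdx1 and Cdx2 and 22 Hox genes. Of the 41, 38 had a probe set (a group of short probes for one transcript) annotated to that gene alone, out of 18194 such genes on the array. Each array carried RNA from 1 pool of 3 mice aged 6 to 8 weeks, all with a balb/c background, and the groups are IL-9 transgenic and wild type (WT), untreated. IL-9 is a cytokine of type 2 immunity, and the study concerned mast cells, intestinal permeability and sensitivity to food antigen. With 1 array in each group there is no spread between mice to set a difference against, no test can be made and no p-value is given.

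The labels do not name the promoter that drives the transgene, and they do not say which stretch of the small intestine was taken. The only probe set of Il9 read 62.2 in the transgenic and 71.6 in the wild-type pool, so it gives no check of the labels, and each direction below rests on them.

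The small intestine runs from duodenum through jejunum to ileum, and its epithelium keeps a regional programme throughout adult life. GATA4 is made in duodenum and jejunum and is lost towards the distal ileum, where bile acids are recovered, and CDX2 keeps the whole epithelium intestinal. Hox genes lie in clusters whose order along the chromosome matches their order of use along the body axis, and in the gut they are expressed in large part by the mesenchyme.

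Stretches just before the start of 5 ileal side genes are shown because they serve the uptake of vitamin B12 and bile acids: Cubn was the one member past 2-fold, Slc51a and Slc51b passed the expression filter on both arrays, and Fabp6 and Slc10a2 were under it on both. Each is the 250 bases before the annotated start in RefSeq's GRCm38.p6, 5′ to 3′ on the gene's strand, which is the minus strand for all 5. Capitals mark, on either strand, the letters TTTATG, the core of a CDX site, or a core of a GATA site. The latter was searched for as AGATAA, and its variant form with another first base was searched for as TGATAA. The windows are chr2:13491877-13492126 for Cubn, chr16:32487880-32488129 for Slc51a, chr9:65422774-65423023 for Slc51b, chr11:43601563-43601812 for Fabp6 and chr8:5105288-5105537 for Slc10a2.
Cubn: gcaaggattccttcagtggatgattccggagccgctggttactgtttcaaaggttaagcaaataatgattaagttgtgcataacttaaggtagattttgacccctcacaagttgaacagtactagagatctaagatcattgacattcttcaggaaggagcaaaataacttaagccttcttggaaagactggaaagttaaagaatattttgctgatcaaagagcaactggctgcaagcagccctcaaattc
Slc51a: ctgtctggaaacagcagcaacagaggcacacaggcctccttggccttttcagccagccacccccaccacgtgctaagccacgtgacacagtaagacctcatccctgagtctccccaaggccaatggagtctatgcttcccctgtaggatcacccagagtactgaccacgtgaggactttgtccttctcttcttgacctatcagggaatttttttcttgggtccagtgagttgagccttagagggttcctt
Slc51b: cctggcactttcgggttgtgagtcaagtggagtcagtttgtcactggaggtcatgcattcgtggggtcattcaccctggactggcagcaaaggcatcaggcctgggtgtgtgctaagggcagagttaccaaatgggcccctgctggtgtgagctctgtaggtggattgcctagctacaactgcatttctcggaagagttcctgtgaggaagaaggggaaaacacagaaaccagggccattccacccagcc
Fabp6: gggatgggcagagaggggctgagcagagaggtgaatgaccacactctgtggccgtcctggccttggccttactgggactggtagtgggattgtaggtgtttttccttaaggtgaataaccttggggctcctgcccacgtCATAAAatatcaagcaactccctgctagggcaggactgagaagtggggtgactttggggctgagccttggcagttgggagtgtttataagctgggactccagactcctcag
Slc10a2: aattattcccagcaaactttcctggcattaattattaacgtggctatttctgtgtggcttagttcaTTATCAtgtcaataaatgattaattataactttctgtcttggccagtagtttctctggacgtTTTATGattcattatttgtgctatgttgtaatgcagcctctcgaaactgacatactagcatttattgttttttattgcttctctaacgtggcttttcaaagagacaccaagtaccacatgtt
The CDX letters occur once before Fabp6, on the opposite strand 111 to 106 bases before the start, and once before Slc10a2, 122 to 117 bases before it. The Slc10a2 window also holds GATA letters on the opposite strand, 184 to 179 bases before the start. In the other 3 windows none of these letters were found, and the motifs do not overlap one another. Of 32851 windows of the same length in that table, 10.8% hold the CDX letters and 16.6% one of the GATA forms. Windows were found for 23 of the 41 genes, of which 6 hold the CDX letters and 3 the GATA letters. A match of letters is no evidence of binding.

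Of the set, 1 gene, Cubn, was lower by 2-fold in the transgenic pool and 0 were higher. Values are intensities on a linear scale, differences are those of log2(intensity + 1), transgenic minus wild type, and 2-fold is a difference of 1. Of the 38 genes, 25 passed an expression filter, which asks that the higher of the 2 values reach the median of all values, an intensity of 78.5. On the whole array 65.2% of genes passed it. Among the 25, 0 were higher by 2-fold, where 0.607% of all 11862 genes past the filter were, and 1 was lower, where 0.202% were. At 1.5-fold the same counts held, 0 higher and 1 lower, against 1.68% and 1.45% of all genes. The SD of the difference between probe sets of one gene, over 4965 genes with several past the filter, was 0.23. Of the 25 genes, 19 differed by no more than that, a share close to the 71.4% of all genes. The other 6 were Cubn, Onecut2, Slc51b, Adh6a, Cdx2 and Hoxc5. This SD describes probes on these arrays and not the spread between mice.

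**Figure D1:**
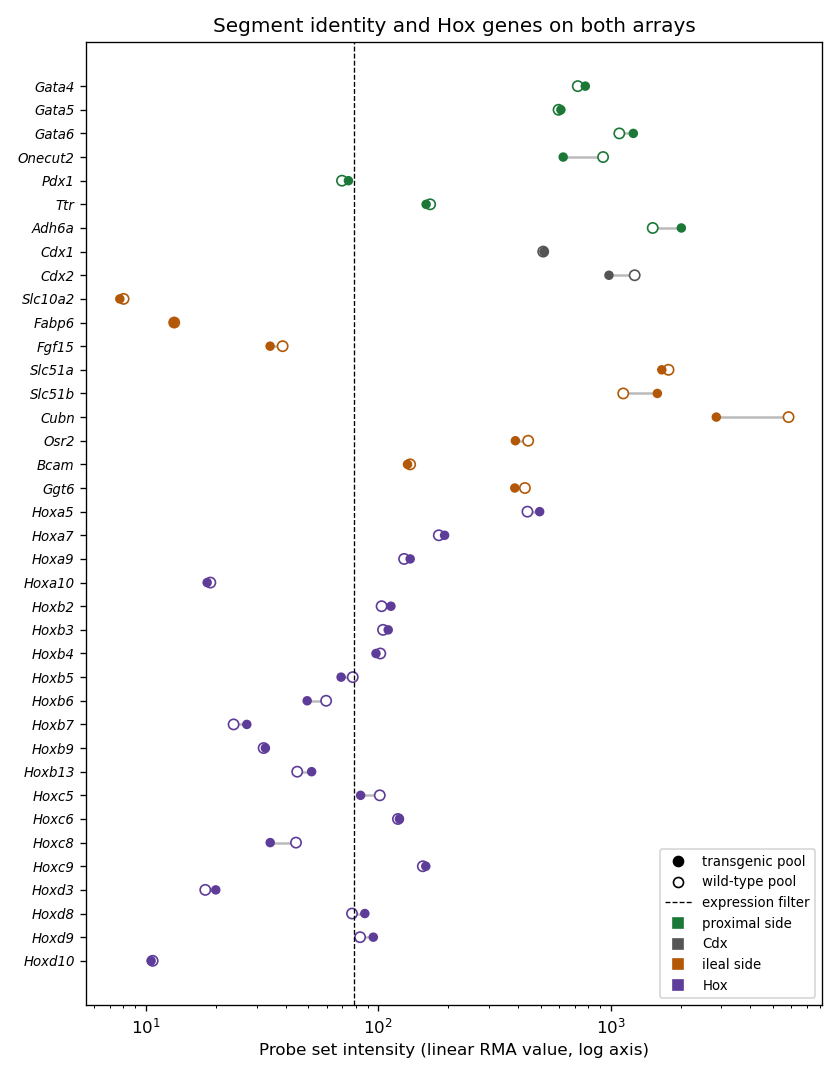
Intensity of each of the 38 genes on the transgenic (filled) and wild-type (open) array, 1 probe set per gene, on a log axis, with the expression filter of 78.5 as a dashed line and colours for the 4 groups of genes. Most pairs of points nearly coincide, Cubn has the widest gap (2851 against 5833), and Slc10a2 and Fabp6 lie at the far left on both arrays.

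The 3 GATA factors read well past the filter in both pools. Gata4, the zinc finger factor of the proximal epithelium, read 779 in the transgenic and 723 in the wild-type pool. The arrays lay close together for this probe set, with a difference of 0.11, while its other probe set read 261 against 169, a difference of 0.62. The size of the Gata4 difference therefore depends on the probe set, and both lay above 0. Gata5, a related factor of the differentiated epithelium, read 611 against 597, and its probe sets differed by 0.03 and 0.04. Gata6, which acts in crypts as well as villi, read 1253 against 1091, a difference of 0.20. Its other probe sets lay at 0.26 and -0.10, so no direction is given for Gata6.

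Onecut2, a homeodomain factor of the proximal epithelium, was the lowest of the proximal side genes. It read 625 in the transgenic and 928 in the wild-type pool, a difference of -0.57. All 3 of its probe sets lay below 0, the others at -0.61 and -0.24. The Onecut2 difference was lower than that of all but 1.57% of genes past the filter, and it did not reach 1.5-fold. Pdx1, the factor of duodenum and pancreas, stayed under the filter on both arrays, at 74.5 and 69.9.

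The expressed genes on the proximal side went in different directions. Adh6a, an alcohol dehydrogenase, read 2016 in the transgenic and 1518 in the wild-type pool. This single probe set was higher in the transgenic pool by 0.41, above 95.5% of genes past the filter. Ttr, the thyroid hormone and retinol carrier transthyretin, read 161 against 167, a difference of -0.06. Its 4 probe sets ran from -0.53 to -0.01, all below 0. The median over the 6 proximal side genes past the filter was 0.07, and over all genes past it 0.01.

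The Cdx genes read clearly past the filter. Cdx1 read 516 in the transgenic and 513 in the wild-type pool, a difference of 0.01, so the arrays nearly coincided. The brighter probe set of Cdx2 read 984 against 1270, a difference of -0.37, and the dimmer one 280 against 224, a difference of 0.32. These probe sets oppose each other by more than the SD between probe sets, and no direction is given for Cdx2.

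Of the 5 ileal genes of bile acid recovery, 2 passed the filter and 3 were under it, alike in both pools. Slc10a2, the apical sodium-dependent bile acid transporter of the terminal ileum, read 7.73 in the transgenic and 8.03 in the wild-type pool. Only 1.02% of all probe sets had a lower mean. Fabp6, the ileal bile acid-binding protein, had one and the same value on both arrays, 13.3, above 9.10% of probe sets. Fgf15, the hormone by which the ileum restrains bile acid synthesis in the liver, read 34.3 against 38.8. All 3 were below the filter on both arrays. Probe sets differ in how well they bind their target, and no detection calls came with the values, so a dim probe set cannot be told apart from a transcript that is scarce.

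The subunits of the basolateral bile acid exporter passed the filter on both arrays. Slc51a, its alpha subunit, read 1661 in the transgenic and 1776 in the wild-type pool, a difference of -0.10. Slc51b, its beta subunit, read 1590 against 1134, higher in the transgenic pool by 0.49. That lies above 97.2% of genes past the filter and under 1.5-fold. Each subunit has 1 probe set, that of Slc51a can match further transcripts, and the larger difference in Slc51b was not shared by Slc51a.

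Cubn, cubilin, the ileal receptor for vitamin B12 bound to intrinsic factor, was the one member past 2-fold. It read 2851 in the transgenic and 5833 in the wild-type pool, 2.05-fold lower, a difference of -1.03. Its second probe set read 1790 against 3605, a difference of -1.01, so both probe sets put the transgenic pool at about the same distance below. Cubn ranked 23 from the lowest of 11862 genes. Under the alternative settings its difference ran from -1.04 to -1.01, close to the threshold throughout.

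The partners of cubilin were also read. Amn, amnionless, which carries cubilin to the cell surface, read 2635 in the transgenic and 3672 in the wild-type pool, a difference of -0.48 in its only probe set. Tcn2, transcobalamin, which takes vitamin B12 into the blood, read 5505 against 7007, a difference of -0.35, although its 5 probe sets reached 0.01. In the list of vitamin B12 and cubilin genes, 5 of 8 passed the filter, 0 passed 2-fold and the median was -0.19. Of these 5, 4 lay below 0, where 47.6% of all genes did. The gene above 0 was Lmbrd1 (1600 against 1303), at 0.30, although its 3 probe sets reached -0.10. Without the filter 5 of the 8 lay below 0 and 3 above, where 51.3% of all genes lay above 0, and the median was -0.06.

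The other ileal side genes lay slightly lower in the transgenic pool. Osr2, an odd-skipped zinc finger factor, read 389 in the transgenic and 442 in the wild-type pool, a difference of -0.18, and its dimmer probe set lay at -0.02. Ggt6, of the gamma-glutamyltransferase family, read 387 against 428, a difference of -0.14, and Bcam, a laminin receptor, 134 against 137, a difference of -0.04. All 3 lie within the SD between probe sets. Slc28a1, a pyrimidine nucleoside transporter, had no probe set of its own name. Over the 6 ileal side genes past the filter, 5 lay below 0, where 47.6% of all genes did, and the median was -0.12.

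**Figure D2:**
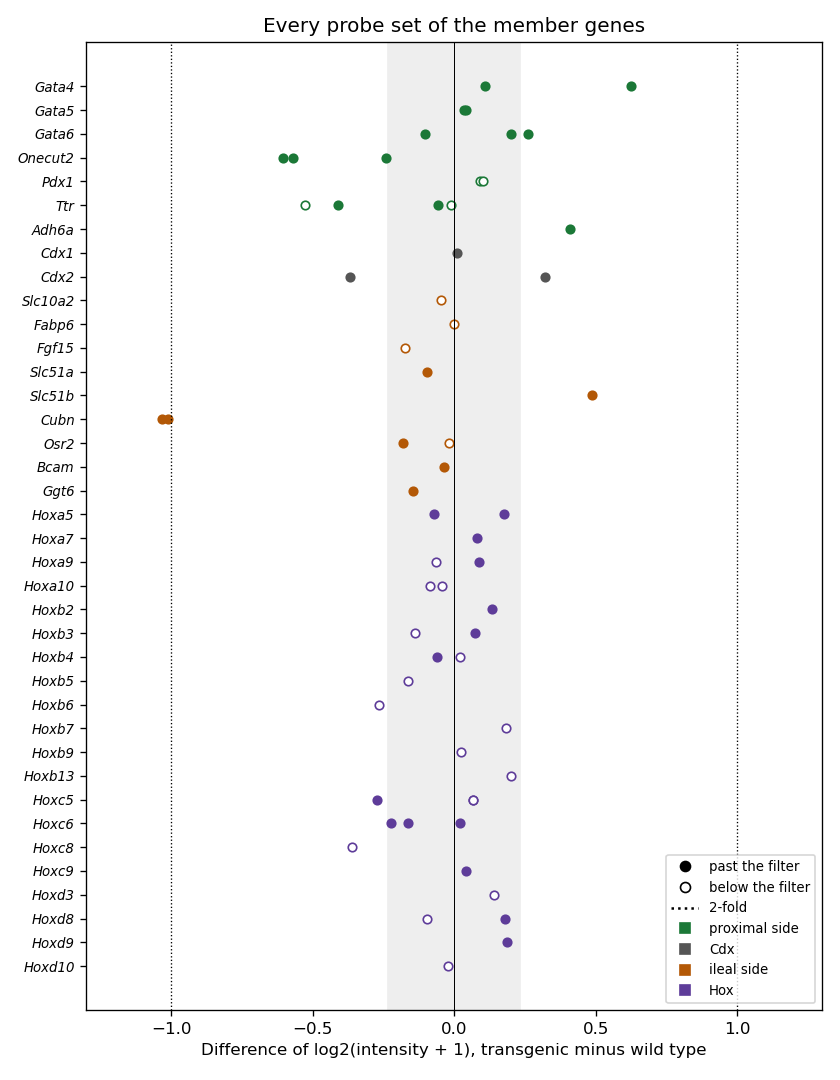
Difference of log2(intensity + 1) for all 61 probe sets of the 38 genes, filled where past the filter, with the SD between probe sets of one gene (0.23) shaded and 2-fold dotted. Both probe sets of Cubn lie at the left dotted line, those of Cdx2 lie on opposite sides of 0, and the Hox genes keep near the shaded band.

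No Hox gene came near 2-fold. Of 20 Hox genes with a probe set, 11 passed the filter, and 10 of these 11 differed by no more than 0.23, where 71.4% of all genes did. Without the filter 17 of 20 did, against 75.2% of all genes. Over all 20 the differences ran from -0.36 in Hoxc8 to 0.20 in Hoxb13, both under the filter. The median over the 11 was 0.08, with 9 above 0, where 51.4% of all genes lay above 0. Hoxd8, one of the 9, passed the filter on the transgenic array only. Of the 9, Hoxa5, Hoxa9, Hoxb3, Hoxc6 and Hoxd8 each have another probe set below 0. The genes below 0, Hoxb4 and Hoxc5, have others above 0, so these signs depend on the probe set taken. Without the filter 13 of 20 lay above 0, against 51.3% of all genes, and the median was 0.06.

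Hoxa5, a regulator of lung and gut development, read 495 in the transgenic and 439 in the wild-type pool, a difference of 0.17. That probe set can match other transcripts, and the other one read 193 against 203, a difference of -0.07, so no direction is given. Hoxa7 read 193 against 182 and Hoxa9 read 137 against 129, with differences of 0.08 and 0.09. The dimmer probe set of Hoxa9 lay at -0.06. Hoxa10 read 18.4 against 19.0, under the filter. The arrays lay close together at each of these HoxA genes.

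In the HoxB cluster the 3 genes past the filter were Hoxb2 (113 against 103), Hoxb3 (110 against 105) and Hoxb4 (97.9 against 102), with differences of 0.13, 0.07 and -0.06. The dimmer probe sets of Hoxb3 and Hoxb4 lay at -0.14 and 0.02. The genes next to these 3 in the cluster's 5′ direction were under the filter. Hoxb5 read 69.2 in the transgenic and 77.7 in the wild-type pool, Hoxb6 read 49.5 against 59.7 and Hoxb7 read 27.2 against 23.9. Hoxb9 read 32.7 against 32.1, and Hoxb13, a gene of the hindgut's far end, 51.7 against 44.8. Levels of different probe sets cannot be ranked, so this order is one of filter calls only, and it was alike in both pools.

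In the HoxC cluster Hoxc9 read 160 in the transgenic and 156 in the wild-type pool, a difference of 0.04, and Hoxc6 read 123 against 122, a difference of 0.02. The other probe sets of Hoxc6 lay at -0.16 and -0.22. Hoxc5 read 84.0 against 101.6, a difference of -0.27, the largest among the Hox genes past the filter. Its dimmer probe sets both lay at 0.07, so no direction is given for Hoxc5. Hoxc8 read 34.3 against 44.3, under the filter.

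In the HoxD cluster Hoxd8 read 87.6 in the transgenic and 77.2 in the wild-type pool, and Hoxd9 read 95.3 against 83.6, with differences of 0.18 and 0.19. The dimmer probe set of Hoxd8 lay at -0.10. Hoxd3 (20.01 against 18.03) and Hoxd10 (10.5 against 10.7) were under the filter. Hoxb8 and Hoxd4 were read only by probe sets that also name Hoxb7 or Hoxd3, which ran from 13.95 to 39.5 in the transgenic pool and from 14.4 to 38.1 in the wild-type pool. Those shared probe sets name no gene here.

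Median differences were close to one another along the Hox clusters. Grouped by paralog number, which counts from the anterior end, the median was 0.07 over 5 genes of groups 2 to 5, 0.08 over 3 genes of groups 6 to 8 and 0.09 over 3 genes of groups 9 to 13. Of 17 Hox genes outside the set, 13 had a probe set and 2 passed the filter. These were Hoxa3, at 0.07, and Hoxc4, at 0.03. Of the Hox cofactors of the Pbx, Meis and Pknox families, 6 of 8 passed the filter, 0 passed 2-fold and the median was -0.13, with Meis2 at -0.36 and Pbx2 at -0.32. All probe sets of these 2 cofactors lay below 0.

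**Figure D3:**
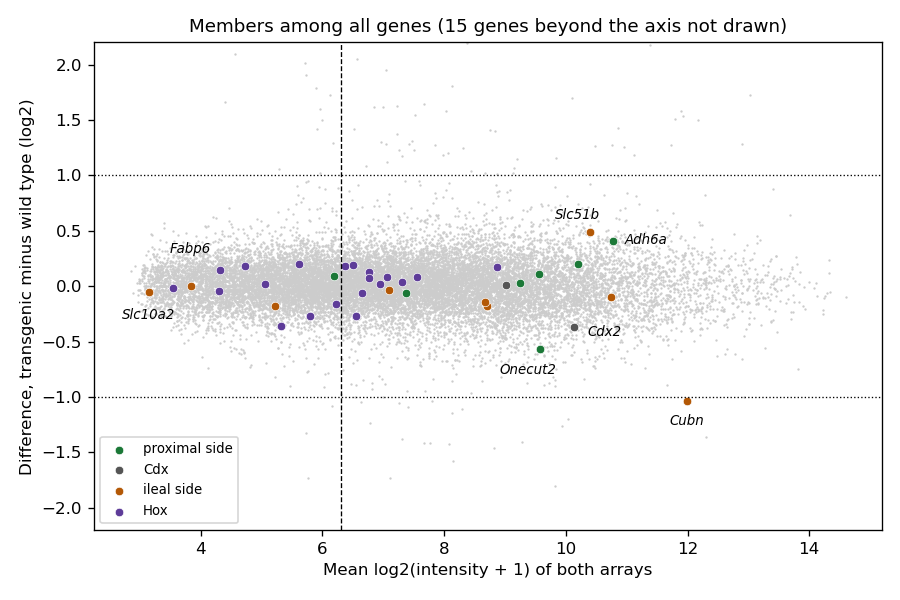
Difference against mean log2 intensity for all 18194 genes (grey) with the 38 genes coloured by group. The dashed line is the filter's value, dotted lines are 2-fold, and 15 genes beyond 2.2 in size are not drawn. Cubn lies on the lower 2-fold line at high intensity, and the Hox genes crowd near 0 around the filter.

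Wider lists of regional genes showed where the set sits. In a list of proximal enterocyte genes, 22 of 22 with a probe set passed the filter, 0 passed 2-fold and 13 lay below 0, with a median of -0.06. The largest differences there were 0.69 in Gstm3, a glutathione transferase, in both of its probe sets, and -0.34 in Slc11a2, the iron transporter, whose 4 probe sets reached 0.06. In a list of distal enterocyte genes, 24 of 24 passed the filter, 2 were lower by 2-fold, 1 was higher and 16 lay below 0, with a median of -0.18. Among the 16, Plb1 passed the filter on the wild-type array only. Within the SD between probe sets lay 10 of those 24 and 15 of the 22 proximal genes, where 71.4% of all genes did. Of all genes past the filter, 47.6% lay below 0, 0.202% were lower by 2-fold and 0.607% higher. The genes past 2-fold were the phosphate transporter Slc34a2 (485 against 1689, a difference of -1.80), Tmigd1 (124 against 331, -1.41) and, in the other direction, the sulphate transporter Slc13a1 (3058 against 1135, 1.43). The low values of Slc34a2 and Tmigd1 were known when the list was drawn up, so the list gives no independent evidence of its direction.

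Regional hormone genes were read from both ends of the small intestine. Of 11 with a probe set, 10 passed the filter, 0 passed 2-fold and the median was 0.01. Gip and Sct, hormones of the proximal end, read 3907 and 710 in the transgenic and 4588 and 713 in the wild-type pool. Nts and Pyy, more abundant distally, read 1508 and 305 against 1807 and 301, so hormones of both ends passed the filter in both pools. Gcg, proglucagon, differed by 0.45 and Tph1, the serotonin-forming enzyme, by 0.61. Of these, Gip, Sct, Nts and Pyy were named after their values were seen.

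Other genes of the bile acid loop and the gut's transcription factors stayed under 2-fold. In the bile acid list 7 of 10 passed the filter, 0 passed 2-fold and the median was -0.14. Within the SD between probe sets lay 5 of the 7, where 71.4% of all genes did. Abcc3, a basolateral exporter, differed by 0.41 and Cyp3a11, a drug- and bile acid-hydroxylating enzyme, by -0.41. In the list of gut factors 13 of 14 passed the filter, 0 passed 2-fold and the median was 0.0026. Foxa1 differed by 0.43 and Hnf4g by -0.46, but the probe sets of Hnf4g reached 0.45. Nr1h4, the bile acid receptor FXR, named after its value was seen, differed by -0.17.

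Marker lists for neighbouring organs and other cells were read beside the set. In the stomach list 6 of 12 passed the filter, 0 passed 2-fold and the median was 0.18, with Barx1 at 0.34 and Ghrl at 0.31. Barx1 passed the filter on the transgenic array only, so it had to be higher to be counted. Without the filter the stomach median was 0.05, with 10 genes above 0 and 2 below. In the colon list 6 of 11 passed, with a median of 0.06. Higher by 2-fold there were Retnlb (567 against 44.6), which is also a goblet cell gene of type 2 immunity, and Car4 (5269 against 2177). The second probe set of Car4 lay at 0.97. Of the 6 colon genes past the filter, 3 lay above 0 and 3 below. Fxyd4 differed by 0.21, Aqp8 by -0.73, Slc26a3 by -0.21 and B4galnt2 by -0.10, named after their values were seen. The 4 probe sets of Slc26a3 reached 0.55 and the 4 of B4galnt2 reached 0.50. In the pancreas list 3 of 6 genes past the filter were higher by 2-fold, Pnliprp1 (446 against 81.5), Pnliprp2 (8180 against 1682) and Clps (5963 against 2099), and summed intensity was 15331 against 4576, while Pdx1 was under the filter. These 3 lipase-related genes make up nearly all of the gap in the sums, and no other gene of the list reached 2-fold. Past the filter Ins2, insulin, differed by 0.20, Cela1, an elastase, by -0.05 and Ctrb1, a chymotrypsinogen, by -0.07. Under it Ptf1a, Cel and Cpb1 differed by 0.38, 0.23 and 0.15 and Cela2a by -0.07. Cpa1, a carboxypeptidase also under the filter, read 63.8 against 63.5. Of all 11 pancreas genes with a probe set 8 lay above 0 and 3 below, where 51.3% of all genes lay above 0. In the liver list 2 of 5 were higher by 2-fold, Cyp2e1 (106 against 37.0) and Apoh (233 against 98.6), with sums of 794 against 588, beside the Ttr difference of -0.06. These 2 genes likewise make up most of the gap, and Apoa2 and F2 differed by -0.18 and -0.19, while Alb, albumin, was under the filter at 75.3 against 63.6. The members of both lists outside the 2-fold genes were named after their values were seen. Apoh has a second probe set with no difference, at 0. Retnlb and Cyp2e1 passed the filter on the transgenic array only, and F2 on the wild-type array only. The part of pancreas or liver RNA in the values of Pdx1 and Ttr was not tested.

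B cell genes, which mark the lymphoid follicles of the gut wall, were lower in the transgenic pool beside the lower Cubn. Of 12 with a probe set 9 passed the filter, and the median was -0.68. All 9 lay below 0, where 47.6% of all genes did, and 3 were lower by 2-fold, where 0.202% were. These 3 were Ms4a1 (74.9 against 251), Cr2 (29.0 against 98.3) and Fcmr (97.2 against 254), and the list's summed intensity was 1317 against 2282. Ms4a1, Cr2 and Fcer2a passed the filter on the wild-type array only, so 2 of the 3 genes past 2-fold had to be lower to be counted at all. Without the filter all 12 lay below 0, with a median of -0.64. The general enterocyte list, by contrast, had 13 of 13 genes past the filter, 0 past 2-fold and a median of -0.11. Of these 13, 9 lay below 0, where 47.6% of all genes did, and 4 above. Krt18 differed by 0.43 and Slc5a1 by 0.27, although the other probe set of Slc5a1 lay at -0.12. In such bulk tissue fewer cells of a type and less RNA per cell cannot be told apart, and whether the pools held the same stretch of gut was not tested.

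Markers of the mesenchyme, where gut Hox genes are in large part expressed, stayed under 2-fold, and 1 marker of enteric neurons did not. In the mesenchyme and smooth muscle list 15 of 16 passed the filter, 0 passed 2-fold, the median was 0.05 and summed intensity was 33026 against 31482.5. Des, desmin, differed by 0.34, with its other probe set at 0.02, and Lum, lumican, by -0.32. Above 0 lay 10 of the 15, where 51.4% of all genes did, and 5 lay below. In the list of enteric neurons and glia 7 of 11 passed, with a median of -0.04 and sums of 1657 against 2559. Of those 7, 2 lay within the SD between probe sets, and of the 15 mesenchyme genes 10 did. These shares are 28.6% and 66.7%, beside 71.4% of all genes past the filter. Vip, a neuropeptide, was lower by 2-fold (693 against 1587) and makes up nearly all of the gap in the sums of that list. Snap25, a synaptic protein, differed by -0.51. Of the 7 genes, 4 lay below 0 and 3 above, the latter being Ret at 0.31, Gfap at 0.24 and Nos1 at 0.18. Each of these 3 has another probe set below 0, at -0.25, -0.11 and -0.18. Ret passed the filter on the transgenic array only. Among the 4 below 0, Sox10, at -0.04, has another probe set at 0.05. The part of these cells in the Hox values was not tested.

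**Figure D4:**
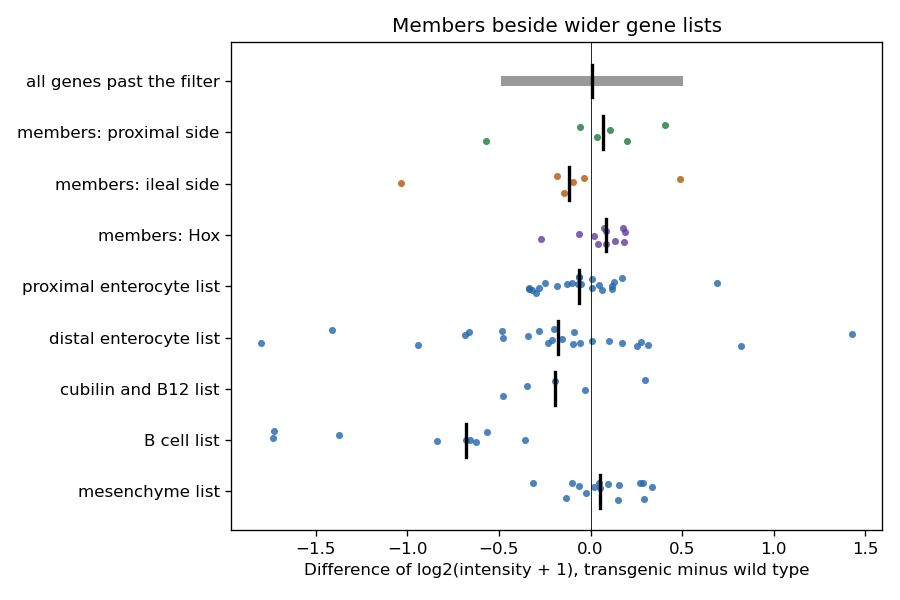
Difference of log2(intensity + 1) for proximal side, ileal side and Hox members past the filter and for those of 5 wider lists. Each point is 1 gene and each black bar a median, and the Cdx genes are not drawn. The grey bar spans the central 95% of all genes past the filter, from -0.49 to 0.50. The members drawn lie inside that bar except Cubn and Onecut2, while the B cell list lies wholly below 0.

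Both arrays held 45101 probe sets, with median intensities of 78.7 in the transgenic and 78.3 in the wild-type pool. The 3′ to 5′ ratio of actin, a sign of RNA integrity, was 1.33 in the transgenic and 1.61 in the wild-type pool. The part of this gap in the differences above was not tested.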

How the data were processed

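Total RNA, 10 µg for each pool, was biotin-labelled for hybridisation to Affymetrix mouse arrays, per the labels' protocols. The deposited values are probe set intensities on a linear scale, and RMA is named, without a version, in the submitters' processing notes. RMA equalises the arrays' distributions, so a shift common to most genes could not be seen. The authors' genome build and chip annotation were not given in the sources used here. Groups were taken from each sample's source label.

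Of 45101 probe sets, 34958 carried 1 gene symbol in a platform annotation table, 932 several and 9211 none, and only the first kind named a gene. The probe set with the highest mean stood for a gene, and the others served as a check. Values were taken as log2(intensity + 1), so differences of dim genes are understated. The number of arrays, 1 in each group, limits the precision, and no test was run. Genes named outside the set are, for each of 16 context lists, up to 4 past 2-fold or otherwise the 2 with the largest difference, unless stated. The members and lists were chosen with earlier results of these data known.

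Alternatives were the mean over probe sets, the omission of those that can match several transcripts (IDs ending in _x_at, _s_at or _a_at), pseudocounts of 0 and 16, renewed quantile normalization, median centring, 3 other filters and 1.5-fold. On simulated data with 11822 genes past the filter, made from the wild-type array, the procedure called 100 of 100 genes that were raised by 1.5 (log2) and 99 of 100 lowered by 1.5, which checks the computation only. Python 3.11.15, pandas 2.3.3, numpy 2.4.6 and matplotlib 3.10.9 were used. Promoter windows came from RefSeq, GRCm38.p6.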

Additional observations from a re-analysis of the deposited data

How the results depend on the processing

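The counts of 0 genes higher and 1 gene lower by 2-fold held under all the alternatives tried. The median difference of the proximal side genes ran from 0.06 to 0.11, that of the ileal side genes from -0.14 to -0.10 and that of the Hox genes from 0.05 to 0.17, the last value resting on 1 Hox gene past a filter at the 75th percentile. With no replicate arrays, the SD between probe sets of one gene served as the yardstick for single genes. Of 147 values of single genes under an alternative, 144 moved by less than it. The mean over probe sets put Gata4 at 0.37 and Cdx2 at -0.02, and leaving out probe sets that can match several transcripts put Hoxa5 at -0.07. The sign changed in 3 genes, Hoxa5 as given and, with the mean over probe sets, Hoxb3 (-0.03) and Hoxc6 (-0.12). Of 17 genes of the set with several probe sets, 9 had them on both sides of 0. No paired analysis was possible because each group has 1 array. Leaving out an array was not possible for the same reason. Signal over background limits the 13 genes under the filter, whose log2 differences are understated.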

Other observations

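Within the distal enterocyte list further genes had differences of over 0.6 on the log2 scale, and they were chosen after their values were seen. Fam151a read 148 in the transgenic and 285 in the wild-type pool, a difference of -0.94, and Mep1a, a subunit of the brush border protease meprin, read 1588 against 2557, a difference of -0.69, with its other probe set at -0.79. Plb1, a brush border phospholipase, differed by -0.66, but its 4 probe sets reached 0.10. It read 74.7 against 119 and passed the filter on the wild-type array only, so it had to be lower to be counted. Muc3, a membrane mucin, read 6670 against 3776, higher in the transgenic pool by 0.82, and both probe sets of Slc13a1 lay above 0, at 0.81 and 1.43. Genes of this list therefore lay on both sides of 0.

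Fabp6 was not alone in having one value on both arrays. The deposited intensities were equal to the last digit on both arrays for 1171 of 45101 probe sets, 2.60% of them.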
